A study of Mus musculus with 5 samples.

Results

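The guanylin peptides, their receptor and the proteins that carry its signal were examined in the fetal mouse colon, by every probe set annotated to Guca2a, Guca2b, Gucy2c, Prkg2 or Pdzk1 alone. These were 6 probe sets for 5 genes, out of 22626 probe sets tested, and Prkg2 was the gene with 2 of them. Colons of HNF4 null embryos, of genotype HNF4LoxP/LoxP FoxA3Cre, were set against control colons of genotype HNF4LoxP/+ FoxA3Cre, all taken at E18.5, shortly before birth. There were 3 null arrays (null_59, null_60 and null_426) and 2 control arrays (CONTROL_406 and CONTROL_421). The labels number them but do not say whether each is a separate embryo or a pool, and p-values measure only the spread between these arrays, which may be technical. By these genotypes every colon carried the Cre transgene and at least 1 floxed allele, and a control cell in which Cre was active kept 1 HNF4 allele. The labels name neither the HNF4 gene meant nor the cells in which the transgene acts (FoxA3 itself is a gene of the gut endoderm), and colons without the transgene were not analysed here.

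Guanylin (Guca2a) and uroguanylin (Guca2b) are small peptides released by the gut epithelium into the lumen. They bind guanylyl cyclase C (Gucy2c) on the apical membrane of epithelial cells, which then makes cyclic GMP (cGMP). The cGMP activates a membrane-bound protein kinase (Prkg2), which opens the chloride channel CFTR and restrains the sodium-proton exchanger NHE3, so that salt and water pass into the lumen. PDZK1 (Pdzk1) is a scaffold with PDZ domains that gathers such apical transporters. The bacterial heat-stable enterotoxin acts on the same receptor, and in adults guanylin is the main ligand of the colon and uroguanylin that of the small intestine.

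The ligand genes are the 2 members of 1 small family. They lie next to each other on chromosome 4, with 0 other genes listed between them in the RefSeq table of assembly GRCm38.p6. The stretch before each start is shown because these neighbours had the largest and 1 of the smaller differences among the members. The sequences are the 250 bases before the annotated start, from RefSeq (GRCm38.p6), read 5′ to 3′ on the gene's strand, chr4:119637482-119637731 (plus strand) for Guca2a and chr4:119658946-119659195 (minus strand) for Guca2b. Capitals mark each match to the letters searched.
Guca2a: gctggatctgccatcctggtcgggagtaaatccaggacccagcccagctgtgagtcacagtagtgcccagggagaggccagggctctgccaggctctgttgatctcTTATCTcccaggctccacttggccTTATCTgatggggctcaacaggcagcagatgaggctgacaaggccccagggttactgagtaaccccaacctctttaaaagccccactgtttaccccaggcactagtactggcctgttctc
Guca2b: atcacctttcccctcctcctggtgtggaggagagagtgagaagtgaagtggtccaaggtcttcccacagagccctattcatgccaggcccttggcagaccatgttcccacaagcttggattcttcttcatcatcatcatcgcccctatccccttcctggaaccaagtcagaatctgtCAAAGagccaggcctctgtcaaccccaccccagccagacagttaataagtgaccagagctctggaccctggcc

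Letters were searched on both strands for factors of the gut endoderm. They were CAAAGTCCA and its core CAAAG for HNF4, GTTAATNAT for HNF1, TTTATNG for CDX factors, AGATAA for GATA factors, and TATAAA as the TATA box. Every match to CAAAGTCCA is also a match to CAAAG. The Guca2a stretch held 2 matches to AGATAA, both on the opposite strand and so read as TTATCT, at 144 to 139 and at 120 to 115 bases before the start, and no match to either HNF4 form. The Guca2b stretch held 1 match to CAAAG, at 73 to 69 bases before the start. Of all 32851 windows of this length in the table, 9.99% held AGATAA and 48.6% held CAAAG, so the Guca2b match is of a common kind. Pdzk1 has 2 annotated starts. Counting from the first base of the transcript as 1, CAAAGTCCA lay at bases 15 to 23 after the first of them, a stretch outside the 250 bases, while 0.475% of all windows with 50 further bases held these letters. Gucy2c and Prkg2 had no entry. A match is only a match of letters, and no array value here measures binding.

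The 5 arrays had median intensities from 123.7 to 135.2 and pairwise correlations across probe sets from 0.946 to 0.974. CONTROL_421 had a ratio of 1.47 between the 3' and 5' control probe sets of Gapdh, against 0.767 to 0.895 in the others. Without it the guanylin gene Guca2a differed by -0.76 on the log2 scale, against -0.72 with all arrays. The 4 probe sets of Hnf4a differed by -0.55 to 0.19, with 0 past the threshold and 1 at an unadjusted p under 0.05, and the 2 dim probe sets of Hnf4g by -0.29 and 0.19. A probe set that lies outside the floxed stretch says nothing about the deletion, and the labels do not place that stretch.

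None of the 6 probe sets passed the threshold, an adjusted p under 0.05 in limma's fit over all probe sets, which 0.124% of the 22626 probe sets passed. At an unadjusted p under 0.05, 1 of the 6 was lower in null colons (Guca2a) and 0 were higher, against 4.33% and 2.82% of all probe sets. By sign, 5 of the 6 were lower and 1 higher, with a median log2 difference of -0.15, where 47.1% of all probe sets were lower and their median was 0.02. All log2 differences here are null minus control, on log2(intensity + 16) after quantile normalisation, while intensities are the deposited linear values, given in the order null_59, null_60, null_426 for the nulls and CONTROL_406, CONTROL_421 for the controls. In such bulk tissue, fewer cells of a type and less RNA per cell cannot be told apart.

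Guca2a, the guanylin gene, had the largest difference of the members. Its probe set 1416905_at read 458, 629 and 377 in the nulls and 873 and 776 in the controls. Each null colon lay below both control colons, and the lower control was 1.24 times the highest null. The nulls had a mean of 488 ± 129 (SD, n = 3) and the controls one of 825 ± 68.4 (SD, n = 2). The log2 difference was -0.72 ± 0.20 (SE), which is 1.65-fold lower in null colons with a 95% interval from 1.20-fold to 2.25-fold. The unadjusted p was 0.00564, the rank of the probe set 256 of 22626, and the limma adjusted p 0.493. With each array left out in turn the difference ran from -0.87 without null_60 to -0.59 without null_426.

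Guca2b, the uroguanylin gene, was dim, and its arrays overlapped. Probe set 1460233_at read 58.3, 73.4 and 77.1 in the nulls, and 70.1 and 77.1 in the controls. The highest null colon and the higher control colon were at the same intensity to 3 digits. These values lay between the 22.1 and 32.7 percentiles of all probe sets on their arrays, whereas Guca2a lay between the 86.5 and 95.6 percentiles. The log2(intensity + 16) scale understates changes of such dim probe sets. The difference was -0.14 ± 0.17 (SE), with a 95% interval from -0.53 to 0.24 and a limma adjusted p of 0.870. That interval reaches from 1.44-fold lower to 1.18-fold higher in null colons. The difference was -0.24 without CONTROL_406, -0.04 without CONTROL_421 and -0.07 with the table as deposited.

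Whether the 2 ligand genes differed in their change was tested on the log2 value of Guca2a minus that of Guca2b within each array. A level of 1 probe set cannot be set against that of another. Changes can be compared only with a limit, since this scale understates those of dim probe sets such as that of Guca2b. Part of any difference between the ligands may therefore come from the scale. The value of Guca2a minus that of Guca2b was 2.69, 2.78 and 2.23 in the nulls, and 3.29 and 3.00 in the controls. The groups did not overlap, and Guca2a was lower relative to Guca2b by a difference of -0.58 on the log2 scale. The two-sided exact permutation p was 0.1, which is the smallest that 3 against 2 arrays allow, so the design could not show a difference at the usual threshold. With the table as deposited or median centring the difference was -0.69 and the exact permutation p 0.2. With a pseudocount of 1 or 64 it was -0.56 or -0.57, with an exact permutation p of 0.1 for both. With 1 array left out the difference ran from -0.42 without CONTROL_406 to -0.72 without CONTROL_421.

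Gucy2c encodes the receptor of both peptides. Probe set 1436370_at read 531, 511 and 397 in the nulls against 680.3 and 568 in the controls. The null colons all lay below the control colons, but the lower control was only 1.07 times the highest null. The means were 479.8 ± 72.1 (SD, n = 3) and 624 ± 79.3 (SD, n = 2), and the log2 difference was -0.33 ± 0.18 (SE), with a 95% interval from -0.74 to 0.08 and a limma adjusted p of 0.759. It ran from -0.22 without CONTROL_406 to -0.44 without CONTROL_421. Among the nulls, null_426 was lowest for both Guca2a and Gucy2c.

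**Figure D1:**
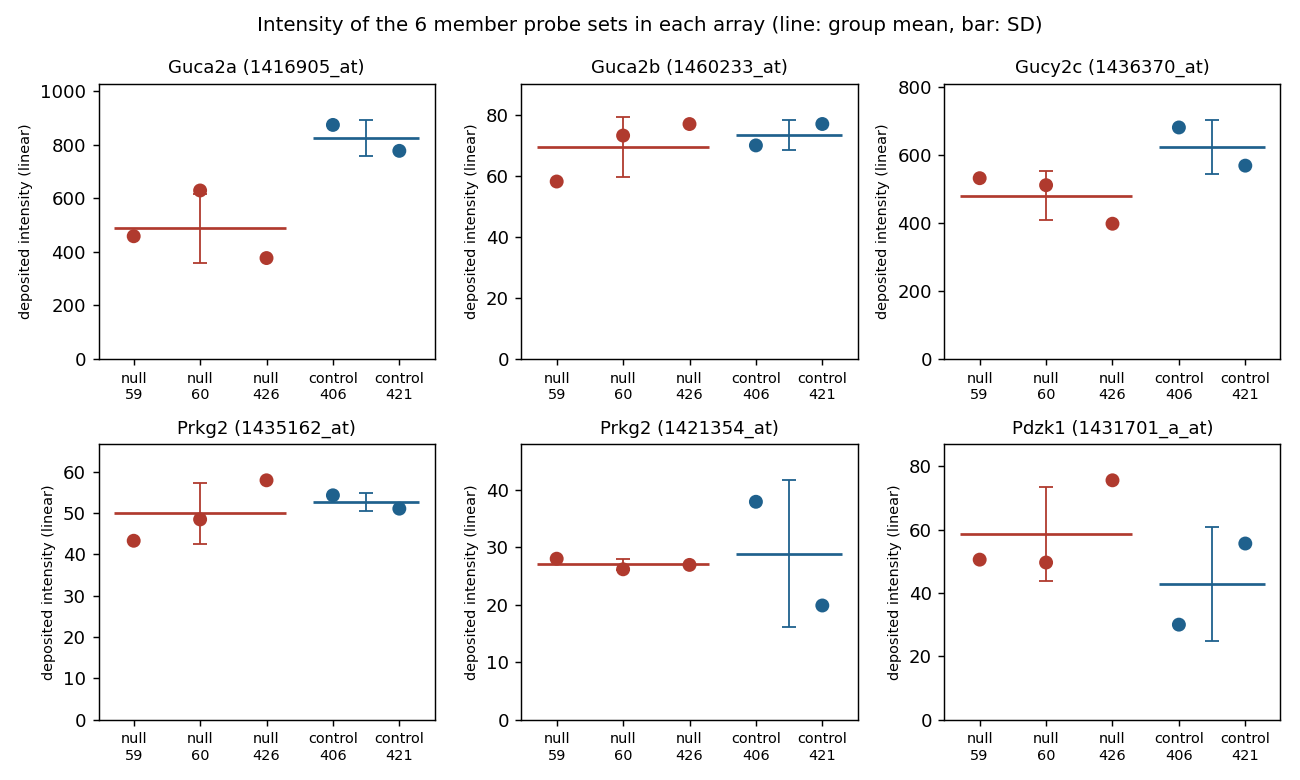
Deposited intensity (linear, from 0) of the 6 probe sets of Guca2a, Guca2b, Gucy2c, Prkg2 and Pdzk1 in each of 3 HNF4 null (red) and 2 control (blue) arrays, with group means as lines and SD as bars. Guca2a and Gucy2c are bright and their null arrays all lie below the control arrays, whereas the groups overlap for Guca2b, Prkg2 and Pdzk1.

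Prkg2, the cGMP-dependent kinase that phosphorylates CFTR, was near the floor of the arrays by both of its probe sets. The brighter, 1435162_at, read 43.3, 48.5 and 57.9 in the nulls, and 54.3 and 51.1 in the controls. The intensities overlapped, with null_426 highest of all 5, although after quantile normalisation the nulls lay just below both controls, by 0.03 on the log2 scale. Its difference was -0.15 ± 0.16 (SE, 95% interval -0.51 to 0.21, limma adjusted p = 0.852). The dimmer, 1421354_at, read 28.0, 26.1 and 26.9 in the nulls, between the 37.9 of CONTROL_406 and the 19.9 of CONTROL_421. Its difference of -0.13 ± 0.19 (SE, 95% interval -0.54 to 0.29, limma adjusted p = 0.893) turned to 0.10 without CONTROL_406. These probe sets lay between the 6.47 and 21.1 percentiles of their arrays, so little can be read from them about the kinase.

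Pdzk1, the apical scaffold, was the member with a higher mean in null colons. Probe set 1431701_a_at read 50.6, 49.6 and 75.6 in the nulls, and 30.0 and 55.6 in the controls. The groups overlapped, since CONTROL_421 lay above 2 of the 3 nulls. The difference was 0.29 ± 0.24 (SE, 95% interval -0.25 to 0.83, limma adjusted p = 0.814), and it was -0.09 without CONTROL_406 and 0.66 without CONTROL_421. The direction thus rested on CONTROL_406, the lowest array, and at the 9.15 to 27.1 percentiles this probe set too was dim.

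All null arrays lay below both controls for 2 of the 6 probe sets by deposited intensity (Guca2a and Gucy2c), against 9.64% of all probe sets. After quantile normalisation it was 3 of the 6, with the brighter Prkg2 probe set, against 11.6%.

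**Figure D2:**
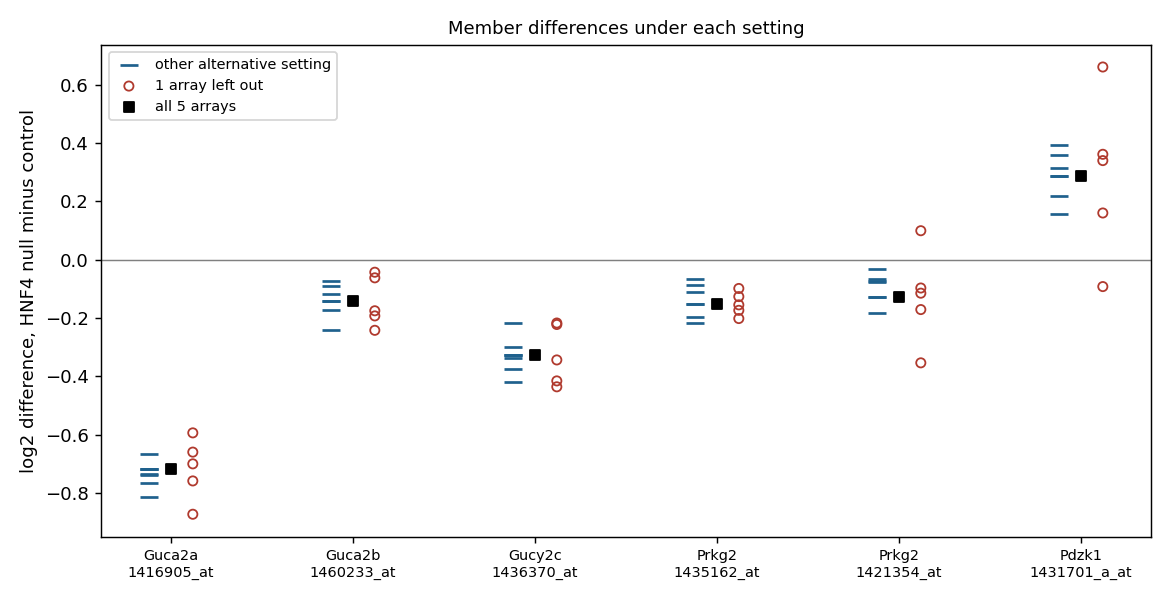
Log2 difference (null minus control) of each member probe set with all 5 arrays (black squares), with 1 array left out (red circles) and under the other alternative settings (blue dashes). Guca2a stays between -0.87 and -0.59, while Pdzk1 and the dimmer Prkg2 probe set cross 0 when CONTROL_406 is left out.

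Other genes of the pathway, with related kinases and transporters, were followed by lists, with each gene read by its brightest probe set. Of 38 genes in 5 lists, 0 passed limma's threshold, and 3 had an unadjusted p under 0.05, all lower in null colons. Among 12393 genes read the same way, 17 passed, and 530 had an unadjusted p under 0.05 with a lower value in null colons.

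The first list held the natriuretic peptides and their receptors, the nitric oxide synthases and the other guanylyl cyclases. It covers routes to cGMP other than guanylin. Of 12 measured genes 8 were higher and 4 lower by sign, with a median of 0.03 against 0.02 over all genes. The difference was -0.21 ± 0.23 (SE) for Npr1, the receptor of atrial natriuretic peptide, and it was 0.19 without CONTROL_406, which read 254 against 130.2 in CONTROL_421. The subunits of the nitric oxide receptor, Gucy1a1 and Gucy1b1, differed by 0.16 ± 0.16 and 0.30 ± 0.19 (SE), and the second and dimmer probe set of Gucy1b1 differed by -0.23. The brighter Gucy1b1 probe set gave 0.09 without CONTROL_421 and 0.51 without CONTROL_406. No gene of this list had an unadjusted p under 0.05.

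Of 5 genes for kinases and kinase substrates, 4 were lower and 1 higher by sign, with a median of -0.07. Prkg1, the soluble cGMP kinase best known from smooth muscle, was dim, at 21.2 to 51.1, so little can be read from it. Its difference of 0.22 ± 0.24 (SE) turned to -0.12 without CONTROL_421. Vasp, an actin regulator that cGMP kinases phosphorylate, differed by -0.18 ± 0.21 (SE) and was at 0.01 without null_426.

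Among 9 measured genes listed under cGMP breakdown and export, the median was 0.10, with 5 higher and 4 lower by sign. Pde9a, a phosphodiesterase with high affinity for cGMP, was the lowest. It read 257, 267 and 191 in the nulls and 351 and 338 in the controls. Every null lay below both controls, at a difference of -0.52 ± 0.19 (SE, unadjusted p = 0.0220, limma adjusted p = 0.641). Pde2a, which cGMP itself stimulates, was the highest of the list at 0.32 ± 0.20 (SE, limma adjusted p = 0.780), with 0.15 without CONTROL_421 and 0.47 without CONTROL_406. Pde5a and Abcc4 had no probe set named by 1 symbol.

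The list of apical and basolateral ion transporters held 8 measured genes, with 5 higher and 3 lower by sign and a median of 0.01. Cftr, the chloride channel that Prkg2 opens, read 107, 162 and 106 in the nulls and 121 and 114 in the controls. The controls lay inside the range of the nulls, the difference was 0.0026 ± 0.21 (SE, 95% interval -0.46 to 0.47), and its sign turned under 4 of 12 alternatives. The sodium-potassium-chloride cotransporter gene Slc12a2, which loads the cell with chloride, differed by -0.13 ± 0.20 (SE, 0.03 without null_426). Its other probe sets gave -0.25 and 0.30. The bicarbonate cotransporter gene Slc4a4 differed by 0.24 ± 0.24 (SE, 0.02 without null_426 and 0.45 without null_60). The other Slc4a4 probe sets gave 0.04, 0.01 and -0.27. The chloride-bicarbonate exchanger gene Slc26a3 was dim and differed by -0.35 ± 0.26 (SE), or 0.07 without CONTROL_421. NHE3, encoded by Slc9a3, had no probe set named by 1 symbol.

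Slc26a2, a sulfate transporter of the same family as Slc26a3, stood far from the rest of that list. Its brightest probe set read 201, 228 and 96.2 in the nulls and 703 and 845 in the controls. The groups were wide apart. The difference was -2.12 ± 0.32 (SE) with a limma adjusted p of 0.0567, just short of the threshold, and over 13 alternatives this p lay between 0.0235 and 0.302, under 0.05 in 6 of them. The second probe set of the gene differed by -0.81 ± 0.21 (SE, limma adjusted p = 0.410).

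The last list held the other PDZ scaffolds and ezrin, which tie apical transporters to the actin of the microvilli. Slc9a3r1 encodes NHERF1, a partner of both CFTR and NHE3. It read 227, 289 and 188 in the nulls and 345 and 308 in the controls, with all nulls below the controls. Its difference was -0.47 ± 0.20 (SE, unadjusted p = 0.0378, limma adjusted p = 0.687), and its other probe sets gave -0.52 and -0.54. The related Slc9a3r2, encoding NHERF2, differed by 0.51 ± 0.24 (SE, limma adjusted p = 0.715) by the brightest of 6 probe sets, but its other 5 lay between -0.34 and 0.02. The brightest gave 0.25 without CONTROL_406 and 0.77 without CONTROL_421. Ezr differed by 0.05 ± 0.18 (SE), with a sign that turned under 4 of 13 alternatives, among them the table as deposited (-0.03) and median centring (-0.08).

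**Figure D3:**
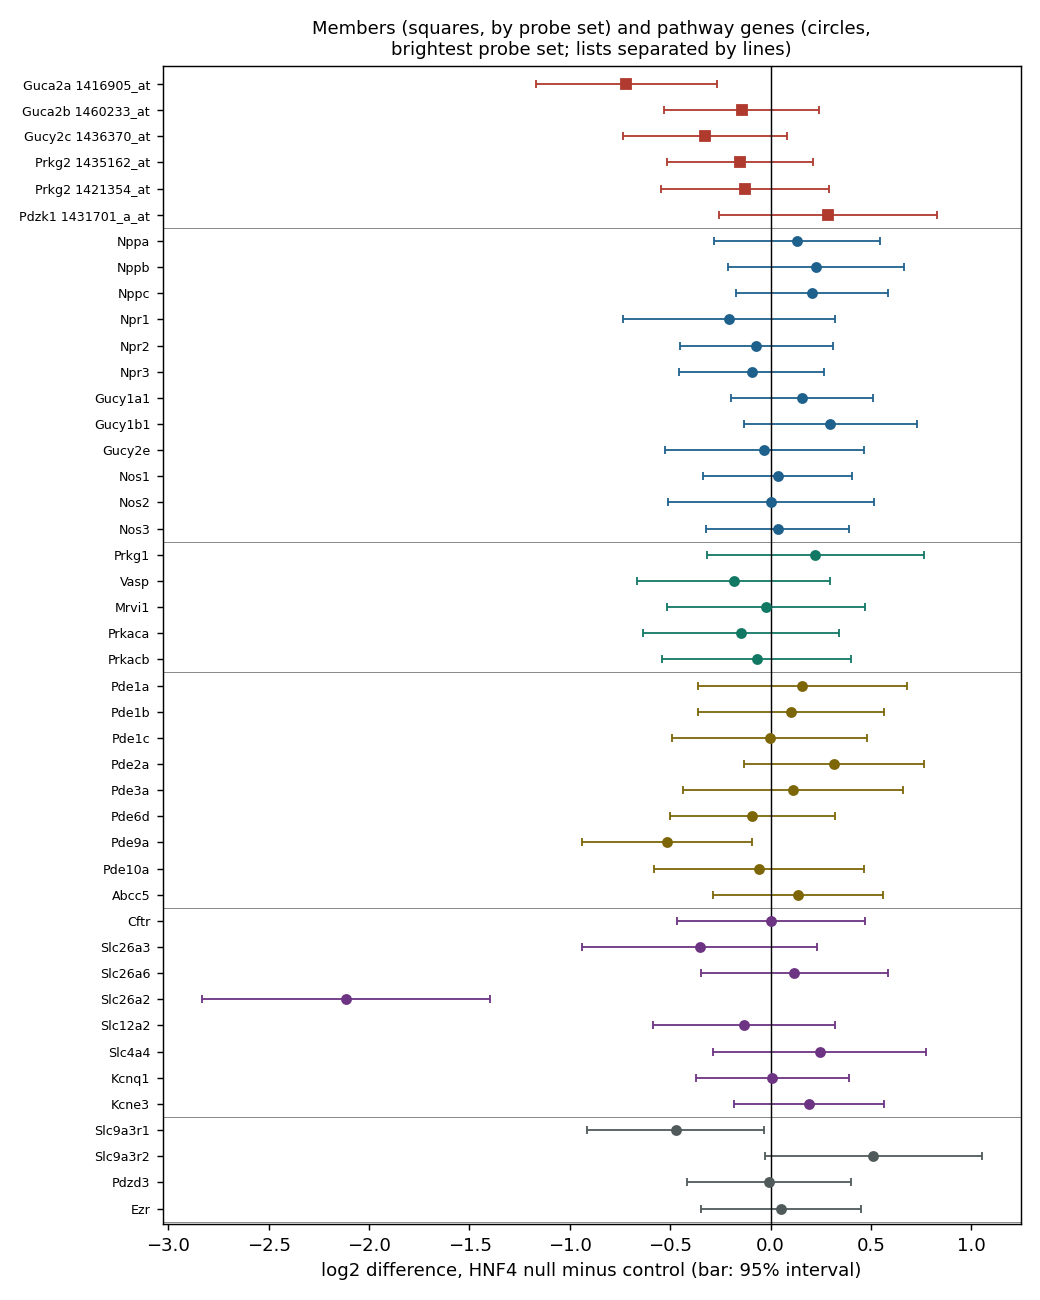
Log2 difference (null minus control) with its 95% interval for the 6 member probe sets (red squares) and 38 further genes of the cGMP pathway or related to it (circles, 1 colour per list: other cyclases and their ligands, kinases, breakdown and export, ion transporters, scaffolds). Slc26a2 at -2.12 is the farthest from 0, and Guca2a, Pde9a, Slc26a2 and Slc9a3r1 are the 4 whose interval lies wholly below 0.

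Because guanylin is made in goblet and absorptive cells, the markers of these and of other cell types were read beside it, 1 probe set a gene. Among all 12393 genes read this way, 0.137% passed, and 4.28% were lower and 2.62% higher at an unadjusted p under 0.05. After quantile normalisation, 11.8% had all nulls below and 12.6% all nulls above both controls. Overlap of the groups was read on that scale for every marker gene. Of 11 measured genes of absorptive cells 2 fell at the threshold, the water channel gene Aqp8 (-2.50) and the microvillar protocadherin gene Cdhr5 (-1.90), 8 were lower at an unadjusted p under 0.05, and 8 had all nulls below both controls. Their median was -0.68, and their summed intensity ran from 1425 to 1643 in null and from 3082 to 3201 in control colons. Much of the gap in this sum lay in Aqp8 (means of 72.2 in null and 477 in control colons) and Cdhr5 (160 and 652). Villin, Vil1, at -0.74, the keratin gene Krt20 at -0.87 and Car1 at -0.50 were the first genes of that list. By sign 9 of its genes were lower and 2 higher, Car4 and Alpl, at 0.19 each. Of 12 genes of the whole epithelium 0 passed, and 2 lower ones had an unadjusted p under 0.05, with a median of 0.03, and the sums of 13602 to 18105 and 17013 to 18176 overlapped. By sign 7 of these 12 were higher and 5 lower. The first genes of the list were Epcam at -0.66, with all nulls below both controls, Cdh1 at -0.24 and Krt8 at -0.15. Others went the other way, such as Krt18 at 0.29 and Cldn4 at 0.48. All nulls of Krt18 lay above both controls after quantile normalisation. By deposited intensity its groups overlapped, with 1326 in null_426 and 1337 in CONTROL_406.

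Of 9 goblet cell genes 1 fell, the secreted lectin gene Zg16 (-2.66), and 8 did not pass. Spdef, a transcription factor of goblet cells, differed by 0.61 with all nulls above both controls (unadjusted p = 0.0186, limma adjusted p = 0.616). The median was -0.06, and the summed intensities were 15026 to 17193 in null and 17332 to 21129.5 in control colons. These sums include Zg16, which read 131, 217 and 279 in the nulls and 1261 and 1548 in the controls. The nearest sums, 17193 and 17332, lie closer together than these Zg16 values of the 2 groups. The sums also include Retnlb, which read below 0 in null_59 and CONTROL_421. Tff3 differed by -0.06, Fcgbp by 0.19, Agr2 by -0.25 and Clca1 by -0.45. Without null_60 or CONTROL_421, Cdhr5 (limma adjusted p = 0.0674 and 0.0545) and Zg16 (0.0774 and 0.0545) no longer passed. The part of absorptive or goblet cell number in the Guca2a difference was not tested.

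Region markers were read beside the ligands, since in adults the main site is the small intestine for Guca2b and the colon for Guca2a. Of 9 genes of the small intestine 0 passed, and 1 lower one had an unadjusted p under 0.05, with a median of 0.02 and overlapping sums (973 to 1062 in null, 959.6 to 1067 in control colons). Levels within this list ranged widely, from the lactase gene Lct at 7.78 to 19.7 to the apolipoprotein gene Apoa4 at 321 to 432. Of 8 hindgut genes 0 passed. At an unadjusted p under 0.05, 3 were lower, Cdx1 (-0.78), Hoxb13 (-0.75) and Hoxa13 (-0.55), against 4.28% of all genes. All nulls lay below both controls for 4, against 11.8% of all genes. By sign 6 were lower and 2 higher, with a median of -0.25. The sums were 1088 to 1433 in null and 1685 to 1905 in control colons. Whether the sampled region had a part in the Guca2a difference was not tested. As to the labelled tissue, Hoxb13 read 361, 341 and 179 in the nulls and 516 and 465 in the controls. Cdx2, which the small intestine also expresses, read 311 to 402 over all arrays, while Hoxd13 at 80.1 to 118 and Hoxa13 at 39.9 to 78.5 were dim. Of 11 genes of pancreas, liver and stomach 0 passed, and 1 (Cela1, -0.39) was at an unadjusted p under 0.05, with a median of -0.05. Some of them read as high as the hindgut genes, such as the pancreatic Cpa1 at 404 to 639 and the gastric Tff1 at 577 to 733, so a level of this size does not by itself show that a cell type was there. Enteroendocrine genes had a median of -0.06 with 0 of 10 past the threshold.

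Outside the epithelium, smooth muscle genes had a median of 0.14, with 0 of 9 past the threshold and 2 higher at an unadjusted p under 0.05. These were the myosin gene Myh11 (0.57) and the actin-binding Tagln (0.56), both smaller without CONTROL_421 (0.22 and 0.25). Both had all nulls above both controls after quantile normalisation. By deposited intensity the groups overlapped for Myh11, with 1831 in null_426 and 1992 in CONTROL_406. The summed intensity of the 9 smooth muscle genes was 17317 to 19214 in null and 15259 to 17954 in control colons. Of 7 endothelial genes 1 fell, the lymphatic marker Lyve1 (-1.83, limma adjusted p = 0.0271, or 0.146 without null_60 and 0.193 without CONTROL_421), while the other 6 were higher by sign and the median was 0.26. Prox1, the transcription factor of lymphatic endothelium, was among those, at 0.34. Fibroblasts (0 of 7 past the threshold, median 0.04), enteric neurons and glia (0 of 6, median 0.13) and leukocytes and erythroid cells (0 of 7, median -0.01) had no gene at an unadjusted p under 0.05. The part of these cell types in the member differences was not tested.

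To place the ligands among brighter genes, the 5 genes most like each were taken by the largest gap, over the 5 arrays, between the centred log2 values of the 2 probe sets. Out of 7399 genes above the median brightness, those nearest to Guca2a were Pttg1ip (largest gap 0.07), Wdpcp (0.09), Cmtm6 (0.10), Sqor (0.11) and Vps35 (0.12). Their differences lay between -0.61 and -0.80, and their limma adjusted p between 0.344 and 0.603. Sqor, the mitochondrial sulfide oxidising enzyme, read 311, 386 and 256 in the nulls and 600.3 and 533 in the controls. Since the genes were picked by this likeness, their shared order of arrays follows from the choice. Other probe sets of these genes did not all share the pattern, since the dimmer ones of Vps35 and Sqor differed by 0.27 and -0.11.

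Guca2b was itself below the median brightness, while the 7400 genes it was set against were above it. The nearest of these were Tmem230 and Laptm4b (largest gap 0.04 for both) and Rnaseh2c, Med16 and Zfp622 (0.05 each). Their differences of -0.12 to -0.17 and the overlap of their groups follow from the same choice. Here too other probe sets differed, with -1.05 for the dim second one of Zfp622, -0.41 and 0.07 for those of Laptm4b, and 0.23 and 0.07 for those of Rnaseh2c.

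**Figure D4:**
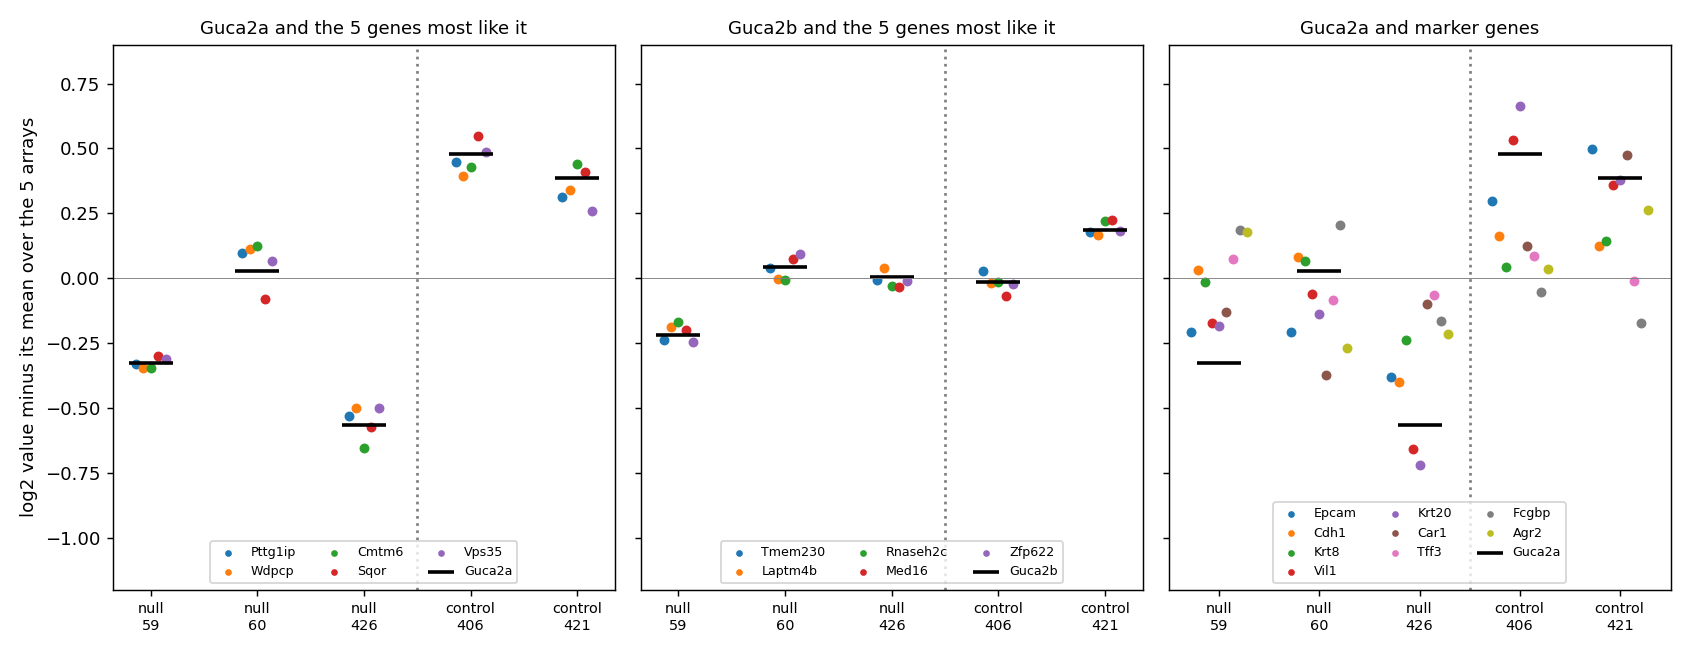
Log2 value minus its mean over the 5 arrays for Guca2a or Guca2b (black bars) beside the 5 genes most like each (left and middle) and beside the first 3 measured genes of the epithelial, absorptive and goblet cell lists (right), with the null and control arrays on either side of the dotted line. Guca2a is at 0.48 and 0.38 in the controls and at -0.56 in null_426. In these quantile normalised values, Epcam, Cdh1, Vil1, Krt20 and Car1 have all nulls below both controls, and Krt8, Tff3, Fcgbp and Agr2 do not. By deposited intensity Cdh1 overlaps (1148 in null_60, 1143 in CONTROL_421). All Krt8 nulls then lie below both controls (4630 in null_60, 4717 in CONTROL_406).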

How the data were processed

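Total RNA of fetal colon was hybridised to 5 Affymetrix arrays, by the labels' protocols. The deposited file holds a linear intensity for each probe set and array. How the authors summarised, corrected and scaled these intensities was not given in the sources used here, though values below 0 show that something was subtracted. Of 22690 probe sets, 64 controls were left out. A platform annotation of 2016 named 20380 by 1 symbol, and 20351 of those matched RefSeq gene IDs, with 0 symbols changed.

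Negative values were set to 0 and log2(intensity + 16), whose array medians spread over 0.11, was quantile normalised. The null and control groups were compared with limma 3.58.1 (R 4.3.3; functions lmFit and eBayes, two-sided, no covariate, total degrees of freedom 9.33). Benjamini-Hochberg adjustment ran over all 22626 probe sets. The number of arrays limits the precision. A gene was read by its probe set of highest mean intensity. Scripts were tested on simulated data.

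Named were all member probe sets, the 10 measured of the pathway genes fixed by name, the lowest and highest gene of each pathway list, and the 5 genes most like each ligand. Marker genes beyond this rule were chosen after their values were seen. Members and lists were chosen with earlier results of these data known. Promoter sequences came from RefSeq (GRCm38.p6). The alternatives tried were no normalisation between arrays, centring on the median, other pseudocounts (1 and 64), array weights, a variance prior that follows intensity (plain or robust), a filter on dim probe sets, averaging the probe sets of a gene, and leaving out each array.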

Additional observations from a re-analysis of the deposited data

How the results depend on the processing

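Guca2a, Guca2b, Gucy2c and the brighter Prkg2 probe set kept their direction under every alternative run, and none of the 6 member probe sets passed limma's threshold under any (adjusted p for Guca2a 0.218 to 0.906, unadjusted 0.00179 to 0.0346). Removal of dim probe sets took out all members but Guca2a and Gucy2c. Of the 42 other genes to which the alternatives were applied, it took out Prkg1, Cftr, Slc26a3 and Lyve1. With 1 array left out, the dimmer Prkg2 probe set ran from -0.35 to 0.10 and Pdzk1 from -0.092 to 0.66, both crossing 0 without CONTROL_406. The count of probe sets past the threshold, 28, was 14 with a pseudocount of 1 and 45 with array weights, and 8 (without null_60) to 104 (without CONTROL_406) with 1 array left out, with 18 without CONTROL_421.

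The alternatives were also applied to 42 of the other named genes, after the data were seen, and 34 of these kept their sign. The remaining named genes, such as Krt18, Prox1 and the hindgut genes, were not run through them singly. With 1 array left out, Npr1 ran from -0.60 to 0.19, Prkg1 from -0.12 to 0.57, Vasp from -0.31 to 0.010, Cftr from -0.18 to 0.12, Slc26a3 from -0.78 to 0.072, Slc12a2 from -0.24 to 0.034, Ezr from -0.064 to 0.17 and Med16 from -0.28 to 0.014. Cftr was at -0.00031 with a pseudocount of 1 and -0.080 with array weights, and Ezr at -0.032 with the table as deposited and -0.078 with median centring. The cause was not tested. No paired analysis was possible because the groups share no replicate numbers. When gene values were means over all probe sets, the hindgut median moved from -0.25 to -0.42 and that of cGMP breakdown and export from 0.10 to 0.013, while the medians of the epithelium (0.029 to -0.0054) and of the PDZ scaffolds (0.022 to -0.025) changed sign near 0. With a pseudocount of 1, Cdhr5, Zg16 and Lyve1 missed the threshold (adjusted p 0.0894, 0.0974 and 0.206).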

Other observations

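Pdzk1ip1, which encodes a small membrane protein that binds PDZK1, was outside the rules for naming and was looked up after its values were seen. Its probe set 1417689_a_at read 471, 535 and 439 in the null colons (in the order null_59, null_60, null_426) and 467 and 375 in the control colons (in the order CONTROL_406, CONTROL_421). Its probe set 1455477_s_at read 349.9, 416 and 415 against 349.6 and 316. The differences were 0.22 ± 0.17 and 0.25 ± 0.17 (SE), and the limma adjusted p was 0.801 and 0.782.

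Retnlb, the goblet cell gene of resistin-like molecule beta, split the arrays regardless of genotype. It read 2517 and 2067 in null_60 and null_426 and 3319.7 in CONTROL_406, but -12.5 in null_59 and -13.8 in CONTROL_421. On the log2(intensity + 16) scale with values below 0 set to 0 and no normalisation, the gap between these arrays was 7.02, and 1 of the 22626 probe sets, Retnlb itself, had so large a gap between neighbouring arrays. The other goblet genes listed beside it did not share this split, with Tff3 at 4656 to 5396 on every array. This gene was chosen after its values were seen, and the cause was not tested.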
